A study of Mus musculus with 2 samples.

Results

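The heat shock proteins and cochaperones described here are 10 genes, chosen by name, of the 22008 genes detected on a pair of striatal arrays. They were chosen with earlier results of these data known. They comprise 4 small heat shock proteins (Hspb1, Hspb6, Hspb8 and Cryab) and 6 inducible chaperones and cochaperones of the classical heat shock response (Hspa1a, Hspa1b, Hsph1, Dnajb1, Bag3 and Hsp90aa1). The arrays carry 15 probes with these gene names, of which 14 were well above background in both groups, so that all 10 genes were measured. One group was WT mice, labelled as strain C57BL/6J, and the other was Cx30 KO mice, labelled as strain Cx30-LacZ. The methods describe the WT controls as non-mutant offspring of heterozygous parents, so the background of the WT mice is named differently in the labels and in the methods. All mice were male and 8 weeks old, and all had received 4 intraperitoneal injections of 20 mg/kg MPTP, a toxin of dopaminergic neurons, at 2 h intervals. Striata were taken on day 1 after the last injection, and the RNA of 2 mice was pooled for each array. Since there was 1 array for each genotype, no test between genotypes was possible and no difference was checked against the spread between mice. Saline-treated mice were not analysed here, so a difference in the response to MPTP and one present before it cannot be told apart.

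Heat shock proteins keep other proteins folded. Small heat shock proteins bind unfolding proteins without using ATP and hold them until the ATP-driven HSP70 machine, with its HSP40 partners and nucleotide exchange factors, refolds them or passes them on for degradation. HSP90 completes the folding of kinases and steroid receptors. Under proteotoxic stress the transcription factor HSF1 binds heat shock elements, which are runs of the unit nGAAn in alternating orientation, in the promoters of many of these genes. In the brain, Cryab and Hspb1 are known to be made by glia, and by reactive astrocytes in particular.

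The promoters of the members were searched for such elements, because HSF1 control is what the classical members are known to share. RefSeq (GRCm38.p6) windows of the 250 bases before a transcription start matched 8 of the 10 genes, with 11 windows. No window was given for Cryab or Hsp90aa1. A pair of facing or opposed units, GAANNTTC or TTCNNGAA, was found in 5 of the 8 genes. Either pair occurs in 12.8% of all 32851 windows of this length (GAANNTTC in 6.69% and TTCNNGAA in 7.17%). That share is per window, whereas a gene with more than 1 window, such as Hspb6 or Hsph1, counts if any of them matches. The matches of the nearly identical genes Hspa1a and Hspa1b are not separate ones either. Both motifs read the same on both strands. They overlap in a run of 3 units, GAANNTTCNNGAA or TTCNNGAANNTTC, which is present in 0.466% of all windows and in none of the members' windows. The matches read as follows, with the pair in capitals and the rest in lower case, 5′ to 3′ along the gene.
Hspb1 (chr5:135887786-135887845, plus strand, 133 to 74 bases before the start): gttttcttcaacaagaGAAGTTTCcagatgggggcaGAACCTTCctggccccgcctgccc
Hspa1a (chr17:34972227-34972286, minus strand, 130 to 71 bases before the start): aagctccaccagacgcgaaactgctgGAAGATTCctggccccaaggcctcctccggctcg
Hspb6, at the second of its starts (chr7:30553170-30553199, plus strand, 131 to 102 bases before it): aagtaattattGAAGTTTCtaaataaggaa
Hsph1 (chr5:149636351-149636380, minus strand, 44 to 15 bases before the start): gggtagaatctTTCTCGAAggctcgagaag
Hspb1 held 2 pairs and the others 1 each. The stretch of Hspa1b (chr17:34959309-34959368, minus strand) has the same letters as that of Hspa1a, and the whole windows of this gene pair differed at 3 of 250 bases (98.8% identity). Hspb8, Dnajb1 and Bag3 had no match in their windows, which says only that these letters are not there.

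The small heat shock proteins were lower in the striatum of Cx30 KO mice, all 4 by the study's criteria, whereas 2 of the 6 inducible genes met them. The criteria for a lower gene are a ratio of Cx30 KO over WT of at most 0.66 with a Z-score of at most −2, and the Z-score was computed here against the log2 ratios of the 1000 probes nearest in mean signal, since the paper does not name the probes behind its own. The background of 22008 detected genes had 3.39% lower by these criteria, 2.39% higher (ratio of at least 1.5 with a Z-score of at least 2) and 45.4% with a log2 ratio below 0. Among the 10 members, 6 were lower, 0 were higher and all 10 had a log2 ratio below 0. Since earlier results of these data were known when the members were chosen, these counts are not those of an unselected list. With a Z-score over all probes, or with ratio limits of 2 and 0.5, 2 members were lower, Cryab and Hspb8. The median log2 ratio was −1.07 for the small heat shock proteins, −0.50 for the inducible genes and 0.03 over all detected genes. Both groups of members lay on the lower side of all genes, and their medians differed by −0.57 on the log2 scale. In bulk tissue, fewer cells of a type and less RNA per cell cannot be told apart.

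These differences can be set only against technical error. The errors given with each signal are those of the array software, which assumes an error proportional to the signal, and they amount to about 0.20 on a log2 ratio. Repeated spots of 295 probes put the SD of a log2 ratio between single spots at 0.06. Different probes of a gene had a median SD of 0.14 and a pooled SD of 0.26, over 7147 genes with more than 1 probe well above background on both arrays. None of these errors includes the variation between mice. Signals depend on the probe as well as on the transcript, so they were compared between the arrays and not between genes. Signals are given as deposited, whereas ratios, percentages and folds were taken after each array was scaled to its 75th percentile. As a check of the labels, Gjb6, which encodes Cx30, gave 1788 ± 179 in WT and 111 ± 11.6 in Cx30 KO mice and was 15.4-fold lower after scaling.

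Cryab showed the largest difference of the members. It encodes αB-crystallin, a small heat shock protein that is abundant in oligodendrocytes and in reactive astrocytes and binds intermediate filaments such as GFAP. Its probe (chr9:50564566-50564625, mm9) read 8733 ± 873 in WT and 2305 ± 231 in Cx30 KO mice. After scaling the signal was 72.3% lower in Cx30 KO mice, a log2 ratio of −1.85 ± 0.20 (software error) with a Z-score of −7.33. The gap between the arrays is several times the software error.

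Hspb8, which acts with Bag3 in the selective autophagy of misfolded proteins, came next. Its probe (chr5:116859063-116859122) gave 558 ± 56.0 in WT and 225 ± 22.8 in Cx30 KO mice, a log2 ratio of −1.24 ± 0.21 with a Z-score of −3.80. Its partner Bag3, a cochaperone that links HSP70 to the small heat shock proteins, gave 1398 ± 140 in WT and 815 ± 81.6 in Cx30 KO mice (chr7:135690420-135690479). The log2 ratio of Bag3 was −0.71 ± 0.20 with a Z-score of −2.56. Both genes were therefore lower by the criteria, Hspb8 by 57.6% and Bag3 by 38.7%.

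Hspb1 encodes HSP25, the mouse counterpart of human HSP27, which stabilises actin filaments. Its probe (chr5:136365366-136365425) gave 4414 ± 441 in WT and 2239 ± 224 in Cx30 KO mice, a log2 ratio of −0.91 ± 0.20 with a Z-score of −3.24. Hspb6 encodes HSP20, a small heat shock protein of muscle and brain, and was read by a pair of probes. The brighter one (chr7:31340398-31340457) gave 2192 ± 219 in WT and 1218 ± 122 in Cx30 KO mice, a log2 ratio of −0.78 ± 0.20 with a Z-score of −2.67. The dimmer one (chr7:31339385-31339528) gave 254 ± 25.9 in WT and 122 ± 12.9 in Cx30 KO mice, a log2 ratio of −0.99 ± 0.21 with a Z-score of −2.76. Each of these probes met the criteria by itself, and those of Hspb6 differed by 0.21, about as much as the software error of a single ratio.

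**Figure D1:**
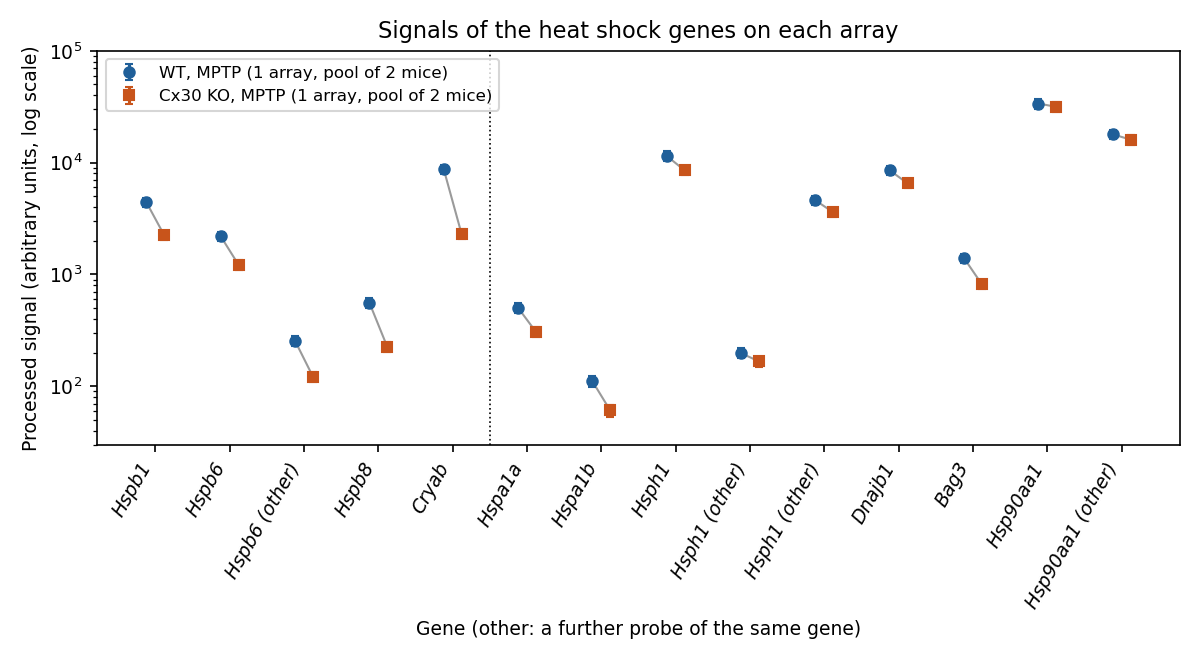
Processed signal of each probe of the heat shock genes (log axis, arbitrary units) in WT (circles) and Cx30 KO mice (squares) after MPTP, 1 array for each, with the software's error as bars, which are often smaller than the symbols. Small heat shock proteins are left of the dotted line, and heights can be compared within a probe only. All 14 probes were lower in Cx30 KO mice, most steeply Cryab, from 8733 to 2305.

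Among the inducible genes, those of HSP70 itself were measured at low to moderate signals. Hspa1a and Hspa1b are neighbouring, nearly identical genes for the stress-inducible HSP70. The Hspa1a probe (chr17:35106766-35106825) gave 503 ± 50.5 in WT and 307 ± 31.0 in Cx30 KO mice, a log2 ratio of −0.64 ± 0.21 with a Z-score of −2.09, just past the limit. The Hspa1b probe (chr17:35093374-35093405 in the files, which is 32 bases) gave 111 ± 12.2 in WT and 60.7 ± 7.59 in Cx30 KO mice. Its log2 ratio of −0.80 ± 0.24 passed the limit on the ratio, but its Z-score of −1.92 did not pass the other. With normexp background correction its log2 ratio was −0.43, which passed neither limit, and Hspa1a lost its call. Transcripts of the one gene may hybridise to the probe of the other, so their signals are uncertain as separate measurements.

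The partners of HSP70 differed less. Hsph1, an HSP110 that serves HSP70 as a nucleotide exchange factor, was read by 3 probes. Its brightest probe (chr5:150419744-150419803) gave 11466 ± 1147 in WT and 8523 ± 852 in Cx30 KO mice, a log2 ratio of −0.36 ± 0.20 with a Z-score of −1.67. The other Hsph1 probes had log2 ratios of −0.29 and −0.17. Dnajb1, the stress-inducible HSP40 that delivers unfolded proteins to HSP70, gave 8532 ± 853 in WT and 6516 ± 652 in Cx30 KO mice (chr8:86135660-86135719). Its log2 ratio was −0.32 ± 0.20 with a Z-score of −1.41. Neither gene met the criteria with any probe.

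Hsp90aa1, the stress-inducible HSP90, was nearly equal on both arrays. Its brightest probe (chr12:111932511-111932796) gave 33731 ± 3373 in WT and 31506 ± 3151 in Cx30 KO mice, a log2 ratio of −0.03 ± 0.20 with a Z-score of −0.25. Another probe had a log2 ratio of −0.09, and the last of them was not well above background on either array. Both measured ratios were smaller than the software error.

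**Figure D2:**
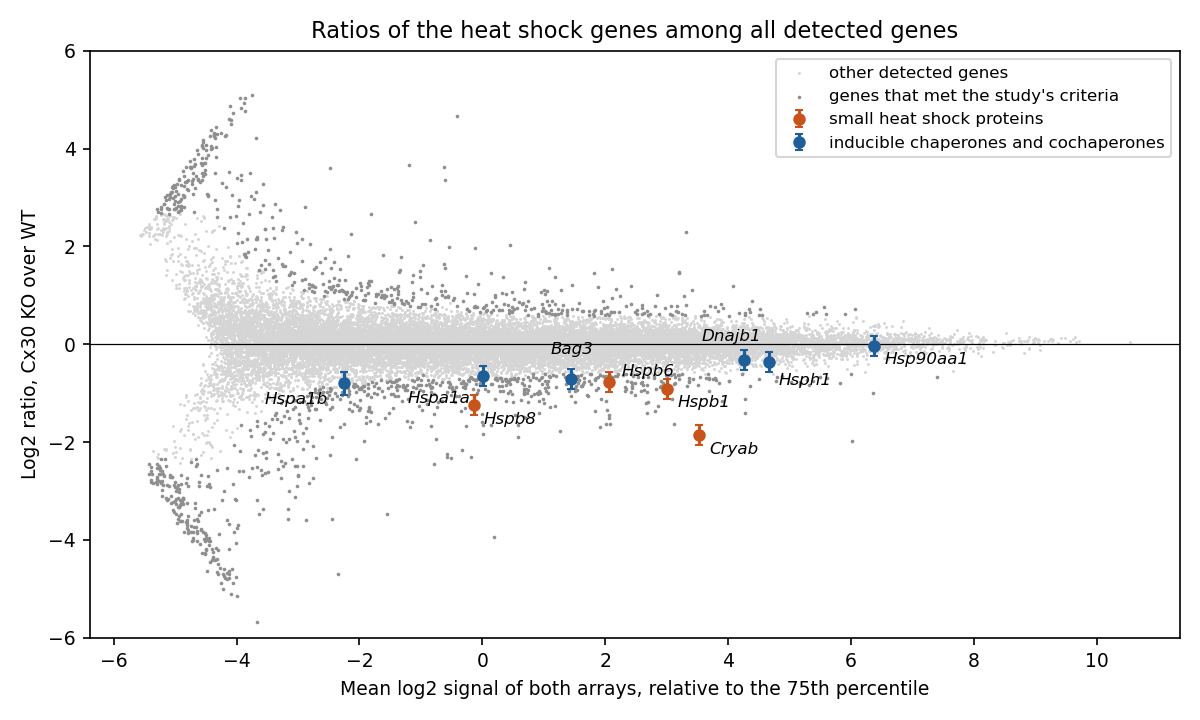
Log2 ratio of Cx30 KO over WT against the mean log2 signal of both arrays, relative to the 75th percentile, for the brightest detected probe of each of 22008 genes. Dark grey points met the study's criteria, and bars on the members are the software's error. Cryab, at −1.85, stands farthest below the other members, and Hsp90aa1, at −0.03, lies within the cloud of genes.

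Ordered by log2 ratio, the members ran from Cryab through Hspb8, Hspb1, Hspa1b, Hspb6, Bag3, Hspa1a, Hsph1 and Dnajb1 to Hsp90aa1. The gap between neighbours in this order exceeded its own software error for 3 of the 9 pairs. These were Cryab and Hspb8 (a gap of 0.61 against an error of 0.29), Hspb8 and Hspb1 (0.33 against 0.29) and Dnajb1 and Hsp90aa1 (0.290 against 0.289). From Hspb1 to Hsph1 no neighbours differed by more than that error. Small and inducible genes were not fully separated, since Hspa1b had a lower ratio than Hspb6.

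The wider list of 64 other chaperone genes, most of them expressed without stress, differed less than the members. Of these, 62 were detected, 2 were lower and 1 was higher by the criteria, which is 3.23% lower against 3.39% of all genes. The median log2 ratio of the list was −0.17, and 40 of its genes (64.5%) had a log2 ratio below 0, against 45.4% of all genes. Of the genes lower by the criteria, Dnaja4, an HSP40 of the cytosol, gave 3433 in WT and 1825 in Cx30 KO mice, a log2 ratio of −0.84 with a Z-score of −3.05. A dimmer Dnaja4 probe had a log2 ratio of −0.71, but its Z-score of −1.70 missed the limit. Dnajb5, an HSP40 related to Dnajb1, gave 4541 in WT and 2799 in Cx30 KO mice, a log2 ratio of −0.63 with a Z-score of −2.26. The dimmer Dnajb5 probes had log2 ratios of −0.28 and −0.27 and met neither limit, so its call rests on the brightest probe. The gene higher by the criteria was Unc45a, an HSP90 cochaperone for myosin folding, which gave 2579 in WT and 4218 in Cx30 KO mice, a log2 ratio of 0.78 with a Z-score of 2.83. A second Unc45a probe had a log2 ratio of 0.73, while its dimmest probe had −0.01.

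By family, the constitutive HSP70 Hspa8 came close to the criteria. Its brightest probe gave 36585 in WT and 23527 in Cx30 KO mice, a log2 ratio of −0.57 with a Z-score of −3.03, and its ratio of 0.676 narrowly missed the limit of 0.66. The other 3 Hspa8 probes had log2 ratios from −0.66 to −0.42, and 2 of them met the criteria. The 9 detected genes of the remaining HSP70 and HSP110 list, Hspa8 included, had a median of −0.13 and the 14 HSP40 genes one of −0.12, with 6 and 8 genes below 0, although the median of the HSP40 genes turned to 0.02 when the probes of each gene were averaged. Of the HSP90 family, Hsp90ab1, the constitutive counterpart of Hsp90aa1, gave 65540 in WT and 58943 in Cx30 KO mice, a log2 ratio of −0.08, so both cytosolic HSP90 genes were nearly level between the arrays.

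The chaperonins, which fold actin and tubulin in the cytosol (CCT) and imported proteins in mitochondria (Hspd1 and Hspe1), had a median of −0.25 with 9 of 10 genes below 0. None of them met the criteria, and their log2 ratios lay between −0.39 and 0.01. The 18 other cochaperones had a median of −0.18 with 11 below 0. Singled out after their values were seen, the HSP90 cochaperones Ahsa1 (−0.40), Fkbp4 (−0.45) and Chordc1 (−0.57) had lower log2 ratios than either cytosolic HSP90 gene, and none met the criteria. In the same list 7 genes were above 0, among them Unc45a (0.78) and Stub1 (0.27). Of the other small heat shock proteins, none of the 5 detected genes met the criteria. Hspb3, singled out after its value was seen, gave 57.4 in WT and 27.0 in Cx30 KO mice, a log2 ratio of −1.01 with a Z-score of −1.80, which was lower than the ratios of Hspb1 and Hspb6. Hspb2, which lies next to Cryab in the genome, gave 76.2 in WT and 86.5 in Cx30 KO mice, a log2 ratio of 0.25. The median over this family was −0.02, which is the value of Hspb11 (834 in WT and 781 in Cx30 KO mice). Its other detected genes gave at most 76.2 in WT and 86.5 in Cx30 KO mice, and Hspb7 was well above background in Cx30 KO mice only. This median ranged from −0.23 to 0.11 with the processing, so it does not show that the rest of the family was unchanged.

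The heat shock factors showed no lower signal that met the criteria. Hsf1, the main stress-activated factor, gave 1210 in WT and 1112 in Cx30 KO mice, a log2 ratio of −0.05. Hsf2 gave 507 in WT and 653 in Cx30 KO mice, a log2 ratio of 0.44 with a Z-score of 1.42. Over the 4 genes of this list the median was 0.23, or 0.09 with normexp background correction. The list also holds Hsbp1 (0.02), which is not itself a heat shock factor, and Hsf4, which was dim at 39.9 in WT and 53.9 in Cx30 KO mice. HSF1 is activated by trimerisation and phosphorylation, which these arrays do not measure.

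**Figure D3:**
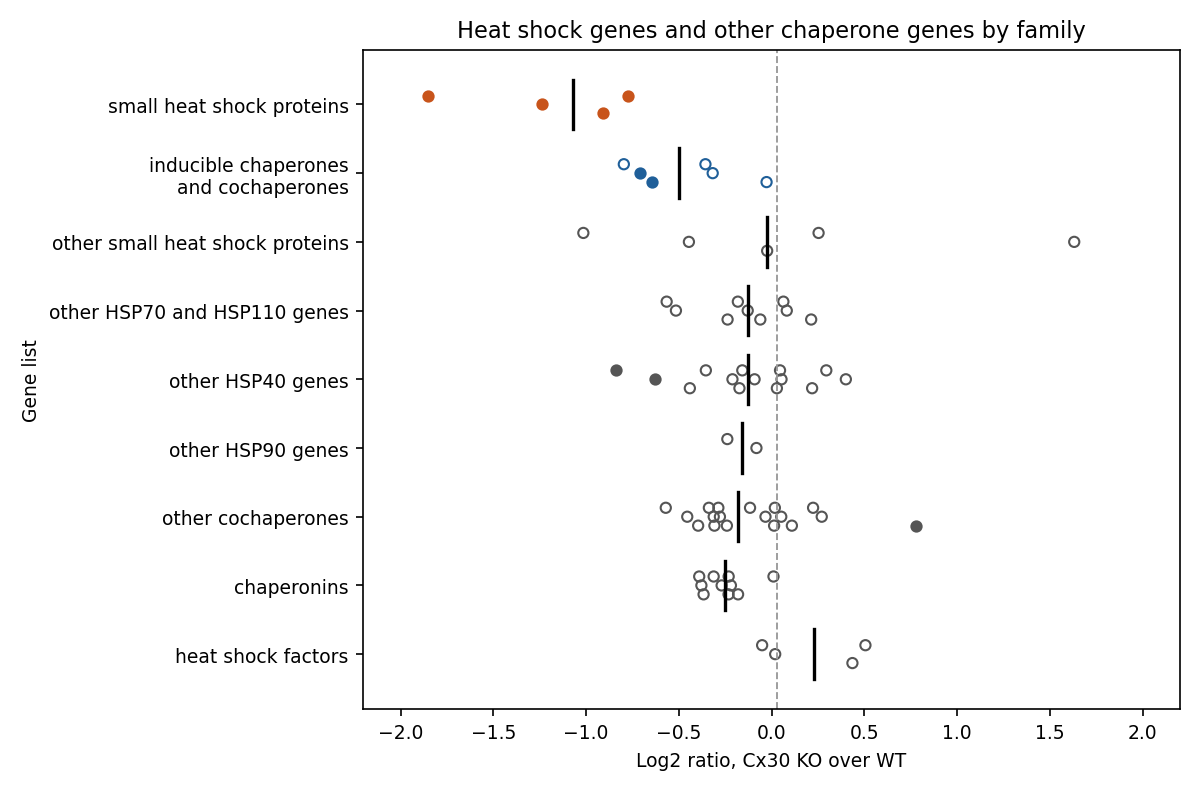
Log2 ratio of Cx30 KO over WT of each detected gene, by chaperone family, with the members in the upper rows. Filled points met the study's criteria, vertical bars are list medians and the dashed line is the median of all detected genes (0.03). The small heat shock proteins have a median of −1.07 and the inducible genes one of −0.50, while the medians of the other families lie between −0.25 and 0.23.

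Several lists of cell type markers differed between the arrays together with the members. The reactive astrocyte markers, which include the intermediate filament genes Gfap (6091 in WT, 1881 in Cx30 KO mice) and Vim (2758 and 967), were lower by the criteria for all 6 of 6 genes. Their median log2 ratio was −1.76, and their summed signal was 11836 in WT and 3593 in Cx30 KO mice. This list was chosen with earlier results of these data known. From its arrays the paper had already reported reduced pan-reactive astrocyte genes in Cx30 KO mice, Gfap among them. The count of 6 of 6 is therefore a description and gives no separate support. The log2 ratio of Cryab was within the range of these markers (−2.44 to −1.43), and those of the other small heat shock proteins were closer to 0. The members were not compared with the paper's own pan-reactive gene list, which may hold some of them. General astrocyte markers had a median of −0.03, with 4 of 8 genes below 0, or 7 with scaling by the median. Among them only Aqp4 was lower by the criteria (log2 ratio of −0.95), and the highest log2 ratio was 0.17. Those with the brightest probes, Aldoc and Glul, had log2 ratios of −0.07 and 0.02.

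Oligodendrocyte markers had a median of −0.73, with all 7 genes below 0 and 5 lower by the criteria. Their summed signal was 157109 in WT and 93330 in Cx30 KO mice, with Mbp at −0.73. Microglial markers had a median of −0.53, with all 8 genes below 0 and 4 lower by the criteria. Their summed signal was 35271 in WT and 24450 in Cx30 KO mice, with Csf1r at −0.36. The medians of both lists were lower than that of the inducible heat shock genes and higher than that of the small heat shock proteins. The part of these cell types in the ratios of the heat shock genes was not tested.

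Of the vascular cells, which also express small heat shock proteins, endothelial markers had a median of −0.30 with 1 of 6 genes lower (Flt1, at −0.93, with Cldn5 at 0.30). Mural and smooth muscle markers had a median of 0.11 with none of 7 genes meeting the criteria. Their summed signal was 11305 in WT and 11425 in Cx30 KO mice, with Acta2 at 0.18 and Vtn at −0.10. Striatal neuron markers, all 9 well above background on both arrays, had a median of −0.16 with none meeting the criteria, and those with the brightest probes, Penk and Ppp1r1b, had log2 ratios of 0.13 and 0.23.

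Markers of tissue next to the striatum were not equal on both arrays. Cortical neuron markers were higher in Cx30 KO mice for all 6 genes, 5 of them by the criteria, with a median of 3.24. The median was 2.14 when the genes measured in Cx30 KO mice only were set to the lower bound of their ratio. With normexp background correction it was 1.26. The summed signal of these markers was 175 in WT and 1391 in Cx30 KO mice. Among them, Neurod2 gave 49.0 in WT and 594 in Cx30 KO mice and Tbr1 gave 78.6 and 423, while Slc17a7, Neurod6 and Emx1 were well above background in Cx30 KO mice only. Choroid plexus markers, detected for 5 of 6 genes, had a median of −0.02, with Clic6 level at −0.02 and Ttr lower at −1.27. The part of a difference in dissection in the ratios of the heat shock genes was not tested.

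Immediate early genes, which respond quickly to neuronal activity, had a median of −0.60 with 8 of 10 genes below 0. Of these, 5 were lower by the criteria, and the summed signal of the list was 28144 in WT and 17190 in Cx30 KO mice. The brightest, Egr1 and Nr4a1, had log2 ratios of −0.79 and −0.96. This median was lower than that of the inducible heat shock genes (−0.50), and their relation was not tested.

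**Figure D4:**
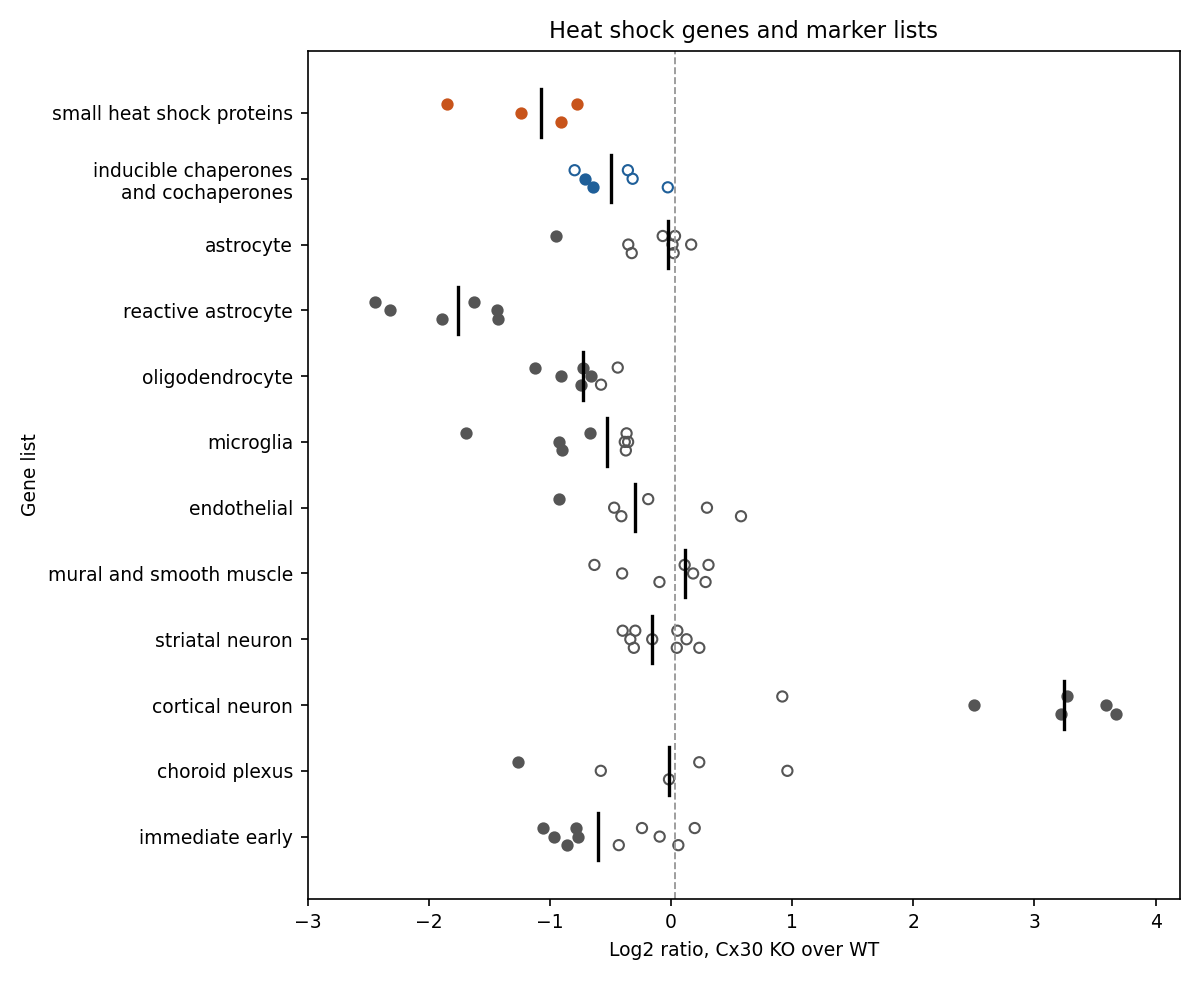
Log2 ratio of Cx30 KO over WT of the heat shock genes (upper rows) and of each detected gene of the marker lists. Filled points met the study's criteria, vertical bars are list medians and the dashed line is the median of all detected genes (0.03). The reactive astrocyte markers (median −1.76), oligodendrocyte markers (−0.73), immediate early genes (−0.60) and microglial markers (−0.53) lie on the same side as the members, and the cortical neuron markers (3.24) on the other.

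Most calls of the members depended on the processing. Cryab and Hspb8 were lower by the criteria under all 12 settings tried, which include a Z-score over all probes and ratio limits of 2 and 0.5. Hspb1, Hspb6 and Bag3 met them under 10 settings, losing the call under the 2 settings just named. Hspa1a met them under 8 settings, and Hspa1b under 3. Hsph1, Dnajb1 and Hsp90aa1 met them under none, and every log2 ratio of a member stayed below 0 under the 8 alternatives that change it.

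**Figure D5:**
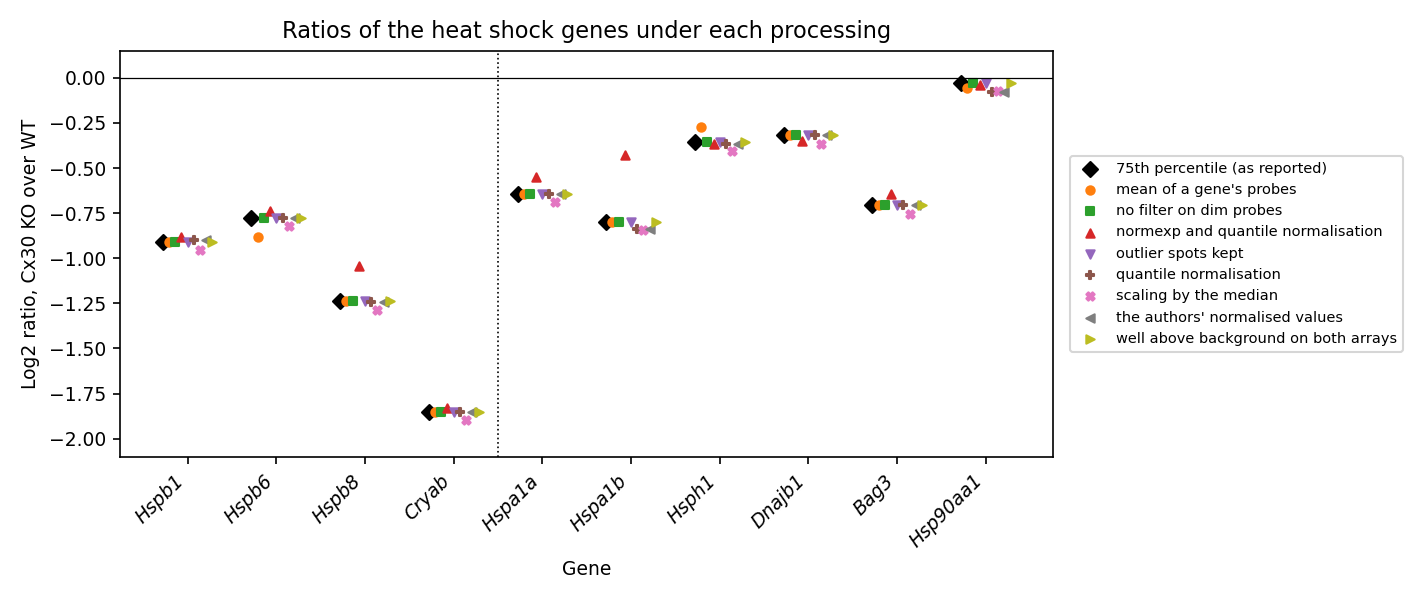
Log2 ratio of Cx30 KO over WT of each member with the reported processing (black diamonds) and with 8 alternatives that change the ratio or the probes behind it. Small heat shock proteins are left of the dotted line. All values are below 0, and those of Hspa1b and Hspb8 move most, to −0.43 and −1.04 with normexp background correction.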

How the data were processed

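The authors hybridised Cy3-labelled striatal RNA to single-colour Agilent arrays of 60-mer probes and extracted the spots with Feature Extraction (version 10.7.1.1 per the file headers, 9.5.1.1 per the submitters' notes). The deposited processed signals are linear intensities, background-subtracted and detrended within each array, with mm9 probe positions. The deposited table of normalised values, also linear intensities, lay within 1% of the quantile-normalised processed signals for all 113210 values. No column of comparisons by the authors was used.

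Each array had 62976 spots and 56605 probes, of which 56.6% (WT) and 58.2% (Cx30 KO) were well above background and 0 were saturated. Control spots and 48 (WT) and 52 (Cx30 KO) outlier spots were left out. Log2 signals of repeated spots were averaged, and the array's 75th percentile (401 and 382) was subtracted. Detected probes had at least 50% of spots well above background in WT, Cx30 KO or both, and the brightest detected probe stood for a gene. The paper does not name the probes behind its Z-score, so the 1000 nearest probes by mean signal gave its mean and SD. Symbols of 1897 probes were updated with RefSeq synonyms. Levels are given per probe and not per length, and they are not absolute.

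Python 3.11.15 (numpy 2.4.6, pandas 2.3.3) and, for normexp with an offset of 50, R 4.3.3 with limma 3.58.1 were used. The Z-score was tested on simulated data. The members and lists were chosen with earlier results of these data known. All members were named with every probe, together with Gjb6, chaperone genes that met the criteria, Hspa8, Hsp90ab1, Hsf1, Hsf2 and Hspb2, and the 2 brightest genes of a marker list, of which some are not reported here. Alternatives were scaling by the median or by quantiles, normexp, the authors' table, outlier spots kept, the mean of a gene's probes, other filters on dim probes, Z-scores over all or the 200 nearest probes, and ratio limits of 2 and 0.5. Precision is limited by the number of arrays.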

Additional observations from a re-analysis of the deposited data

How the results depend on the processing

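No paired analysis was possible because there was 1 array for each genotype, and leaving out a replicate could not be run for the same reason. Of the 11 alternatives, 8 change a ratio or the probes behind it, and under these no member and neither group of members changed its direction. The median log2 ratio ranged from −1.12 to −0.96 for the small heat shock proteins, from −0.55 to −0.40 for the inducible genes and from −0.21 to −0.11 for the wider chaperone list, and the difference between both groups of members ranged from −0.59 to −0.57. Medians near 0 changed sign for the HSP40 genes (0.02), the mural (−0.03) and the striatal neuron markers (0.01) when the probes of a gene were averaged, and for the other small heat shock proteins (0.11) and the choroid plexus markers (0.11) without a filter on dim probes. The median of all genes lay between −0.07 (no filter on dim probes) and 0.04. With a Z-score over all probes, 2 members, 0 genes of the wider list and 455 of all genes were lower. With ratio limits of 2 and 0.5, 2 members were lower, 0 genes of the wider list were lower or higher, and 427 of all genes were lower and 339 higher. When the probes of a gene were averaged, 1 gene of the wider list was lower (Dnaja4) and 0 were higher. When both arrays had to be well above background, 332 of all genes were higher. Normexp with quantile normalisation moved Hspa1b to −0.43 and Hspb8 to −1.04 by more than the median SD between probes of a gene (0.14), for Hspb8 by less than the pooled SD (0.26). It also moved the median of the cortical neuron markers from 3.24 to 1.26. The Z-score over all probes takes its SD also from dim probes, whose ratios scatter more, as the plot of ratio against signal shows. Low signal limits Hspa1b, at 111 and 60.7 against lowest signals well above background of 19.8 in WT and 17.4 in Cx30 KO mice.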

Other observations

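The detected genes were also grouped by the heat shock element motifs in their promoters. The 56 detected genes with a run of 3 units in a RefSeq window had a median log2 ratio of 0.03, with 1 lower and 1 higher by the criteria. The 1571 genes with a pair but no such run had a median of 0.01, with 68 lower and 46 higher. The 11413 genes with a window but no pair had a median of 0.02, with 400 lower and 260 higher. These classes include the members and the wider chaperone list. Without those genes, the share lower was 4.11% with a pair but no run, 3.49% with no pair and 1.89% with a run. These values are descriptions of a pair of arrays, and no test was made.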
